A study of Homo sapiens with 12 samples.

Results

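The transcriptional response of a breast cancer line to paclitaxel was described from 6 of the 12 RNA-seq libraries of the series, 3 of WT cells in paclitaxel and 3 of WT cells in its solvent DMSO. The comparison covered every gene that passed a filter on low counts, 21974 of the 25049 in the counts (87.7%). The cells were MDA-MB-231b, a bone-tropic derivative of the established human triple-negative line MDA-MB-231. The derivative was obtained, per the series design text, by repeated passage through athymic nude mice with recovery from the marrow. The study used lentiviral CRISPR-Cas9 with a guide against GLI2 or a guide without a target. The genotypes are labelled GLI2 KO and WT, and the sources used here do not say whether each was a clone or a pool. WT cells received 50 nM paclitaxel or DMSO for 2 days, and GLI2 KO cells received the same. The GLI2 KO libraries entered the low-count filter, the estimate of spread behind every p-value, the mean levels over 12 libraries and the test of a difference in response. All 4 groups had 3 libraries each, made from polyadenylated RNA. The labels do not say whether a group's libraries came from separate cultures. The p-values therefore reflect the spread among these libraries alone, and that spread may be technical.

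Paclitaxel is a taxane that binds beta-tubulin on the inner face of the microtubule and stabilises the polymer. Dividing cells then fail to satisfy the spindle assembly checkpoint, the surveillance system that delays chromosome separation until kinetochores are attached. Cells held in mitosis may die there or slip back into interphase without dividing, often with several nuclei. Interphase microtubules are stabilised too, and taxanes are known to activate stress kinase, NF-kB and early response genes in several cell types. P-glycoprotein, the product of ABCB1, exports taxanes, and cytochromes P450 of the liver break them down.

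The WT libraries held 83230948 to 109018776 counts. A gene's level is given in CPM, counts scaled to a common library size with TMM factors, as the mean ± SD of 3 libraries, and a change as the log2 fold change of paclitaxel over DMSO ± its standard error. Throughout, "rose" and "fell" mean an adjusted p below 0.05 by edgeR's quasi-likelihood test with Benjamini-Hochberg adjustment over all genes tested. The floor of 3 counts in a library lay between 0.0275 and 0.036 CPM, and no fitted fold change is given for a gene whose DMSO mean lay at or below it. Within a group, libraries differed beyond counting noise (chi-square per degree of freedom of 2.9 to 11.5). The DMSO library numbered replicate 2 stood apart, at 11.5 and 8.46 from the other DMSO libraries, which differed from each other by 3.38. All WT libraries had EGFR, AXL and VIM, genes of the mesenchymal triple-negative type to which the line belongs, at 568 CPM or more. Of the marker lists for other cells, the haematopoietic list summed to 0.993 ± 0.0482 CPM in DMSO and 2.28 ± 0.142 CPM in paclitaxel over 6 genes tested. The endothelial list summed to 2.67 ± 0.312 and 4.35 ± 0.211 CPM over 4 genes, and the list of stromal fibroblast and osteoblast genes to 61.1 ± 2.4 and 72.5 ± 0.865 CPM over 6. Of these genes 4 of 6, 4 of 4 and 5 of 6 rose. None of those tested had 0 counts over the libraries of 1 treatment and more than 3 over those of the other. In the order given, 5, 3 and 5 further markers were not in the counts, and 1 of each list was below the filter. The part of these genes in the results was not tested.

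Paclitaxel changed 14660 genes, or 66.7% of those tested, with 7613 higher (34.6%) and 7047 lower (32.1%). The changes were many and mostly small. Of the genes called, 7477 (51%) moved by less than 0.5 on the log2 scale. At least a 2-fold rise was called for 3953 genes (18%) and at least a 2-fold fall for 129 (0.587%). Of these rises 2497 were of genes with a mean of 0.1 to 1 CPM over all 12 libraries and 789 of genes below 0.1 CPM. At such levels a gene can pass the filter through the paclitaxel groups alone. With a minimum count of 50, 1673 rises and 43 falls of that size were called. Replicates of the treatments did not overlap for 15713 genes (71.5%). Without the DMSO library that stood apart 14183 genes were called.

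Direction followed abundance. Among the 2397 genes with a mean of 100 CPM or more over all 12 libraries, 278 (11.6%) rose, 1615 (67.4%) fell, and the median log2 fold change was -0.18. Between 10 and 100 CPM, 1408 of 7296 rose and 4214 (57.8%) fell, with a median of -0.15. Between 1 and 10 CPM the balance turned, with 1805 of 4107 (43.9%) higher and 910 lower and a median of 0.16. Between 0.1 and 1 CPM, 3333 of 6808 (49%) rose and 298 fell, with a median of 0.67. The count of any gene list below is to be read against these shares at its level, and a share near them is no result about the list. Genes below 0.1 CPM passed the filter only through the groups in which they were high, so their counts of rises are not a result. Some genes between 0.1 and 1 CPM did so too, among them CXCL1 at 0.0435 CPM in DMSO and 0.484 CPM in paclitaxel. The 49% and the median of 0.67 at that level are therefore a description. The number of genes with at least 1 count moved with this pattern, at 23712 to 24020 in the DMSO and 24923 to 24943 in the paclitaxel libraries, and its part was not tested. Levels are shares of a library. A gene that fell in many cells, cells that were lost and a change in RNA per cell cannot be told apart in bulk RNA. The scaling also set the zero. Library totals in place of TMM factors moved the fold changes upwards by a median of 0.16 and upper-quartile factors by 0.13, which made 47.1% and 45.1% of genes higher and 19.5% and 21.5% lower. Changes below are relative to TMM. Medians between about -0.16 and 0, such as that of genes between 10 and 100 CPM, change sign under library totals.

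**Figure D1:**
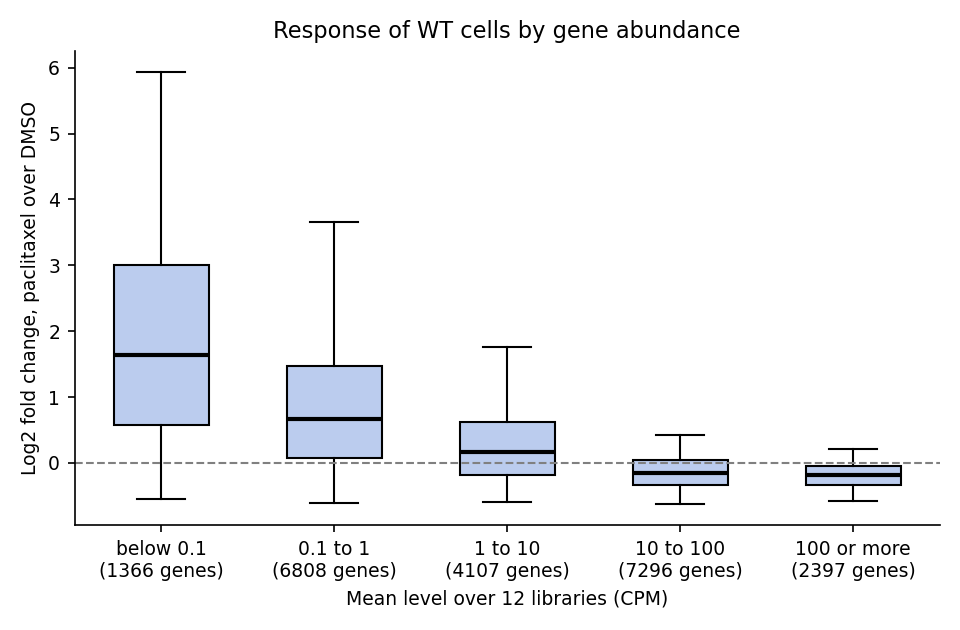
Log2 fold change of paclitaxel over DMSO in WT cells (y axis) for the genes tested, grouped by mean level over the 12 libraries (x axis, CPM). Boxes span the quartiles with the median as a line, whiskers span from 5% to 95% of genes, and the dashed line marks no change. The median fell from 0.67 at 0.1 to 1 CPM to -0.18 at 100 CPM or more, on TMM factors. Some genes below 1 CPM passed the low-count filter only through the groups in which they were high.

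The genes that gained most reads were few and of mixed kind. EGR1, an early response zinc-finger factor, had 48.3, 40 and 46.6 CPM in DMSO and 502, 530 and 566 CPM in paclitaxel, a log2 fold change of 3.56 ± 0.24 (adjusted p = 1.51e-06). ARRDC3, an alpha-arrestin that directs membrane receptors to degradation, had 20.1, 16.5 and 18.4 CPM and 222, 241 and 271 CPM, a change of 3.73 ± 0.13. The groups of neither gene overlapped. TXNIP, an inhibitor of glucose uptake and thioredoxin, had 48.6, 47.1 and 47.4 CPM in DMSO and 205, 217 and 236 in paclitaxel (2.20 ± 0.09). THBS1, the matrix glycoprotein thrombospondin-1, rose from 126 ± 20.6 to 397 ± 43 CPM (1.65 ± 0.14). CITED2, a transcriptional co-regulator, rose by 1.22 ± 0.05, and the early response genes IER2 and IER3 by 1.30 ± 0.08 and 1.21 ± 0.09. FTH1, the ferritin heavy chain, gained the most CPM of any nuclear-encoded gene, from 1689 ± 37.5 to 2235 ± 25.6 CPM (0.40 ± 0.05). It shares 62.4% of its exon bases with BEST1, and the sources used here do not say how shared bases were counted. ODC1, which makes putrescine, rose from 321 ± 13.3 to 600 ± 36.4 CPM (0.90 ± 0.08). MT-RNR2, the mitochondrial large ribosomal RNA, rose from 3908 ± 407 to 4746 ± 201 CPM (0.28 ± 0.07), MT-CYB, of respiratory complex III, from 2431 ± 269 to 2846 ± 112 CPM (0.23 ± 0.06, with overlapping groups and a call lost in the fit on WT libraries alone, adjusted p = 0.0722), and MT-ND5, of complex I, from 1412 ± 245 to 2073 ± 113 CPM (0.55 ± 0.14). A gene that the counts list as ENSG00000275216, without a symbol, rose from 167 ± 13.7 to 488 ± 15.4 CPM (1.54 ± 0.05). HIF1A-AS3, a noncoding RNA of the HIF1A locus, rose from 34.9 ± 1.42 to 101 ± 3.96 CPM (1.54 ± 0.08).

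The genes that lost most reads were also of mixed kind. FASN, fatty acid synthase, had 1812, 1938 and 1831 CPM in DMSO and 844, 776 and 792 CPM in paclitaxel, a log2 fold change of -1.21 ± 0.08 (adjusted p = 1.03e-07). Its groups did not overlap, and it was the largest fall among genes of 100 CPM or more. The gamma-actin gene ACTG1 fell (-0.58 ± 0.03), from 3549 ± 51.7 to 2367 ± 44.7 CPM, and the beta-actin gene ACTB (-0.41 ± 0.03), from 3229 ± 34.4 to 2429 ± 52.6 CPM. EEF1A1, the elongation factor that brings aminoacyl-tRNA to the ribosome, fell from 11482 ± 531 to 9727 ± 141 CPM (-0.24 ± 0.05, and -0.08 with library totals, adjusted p = 0.0798), and GAPDH from 3819 ± 82.2 to 3207 ± 16.4 CPM (-0.25 ± 0.04). The intermediate filament gene VIM (-0.42 ± 0.04), the cytolinker PLEC (-0.58 ± 0.06) and the actin crosslinker FLNA (-0.46 ± 0.03) fell as well. SYNE2, a nesprin that ties the nucleus to the cytoskeleton, fell (-1.14 ± 0.04), from 217 ± 4.51 to 98.1 ± 2.56 CPM. H2AX, the histone variant phosphorylated at broken DNA, fell (-1.17 ± 0.04). CDCA7 (-1.05 ± 0.03), a MYC and E2F target, NIBAN1 (-1.09 ± 0.08), a stress-associated gene, and GAS6 (-1.01 ± 0.05), the ligand of AXL, were also among the 10 largest falls, as were RRM2 and PSAT1, described below.

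**Figure D2:**
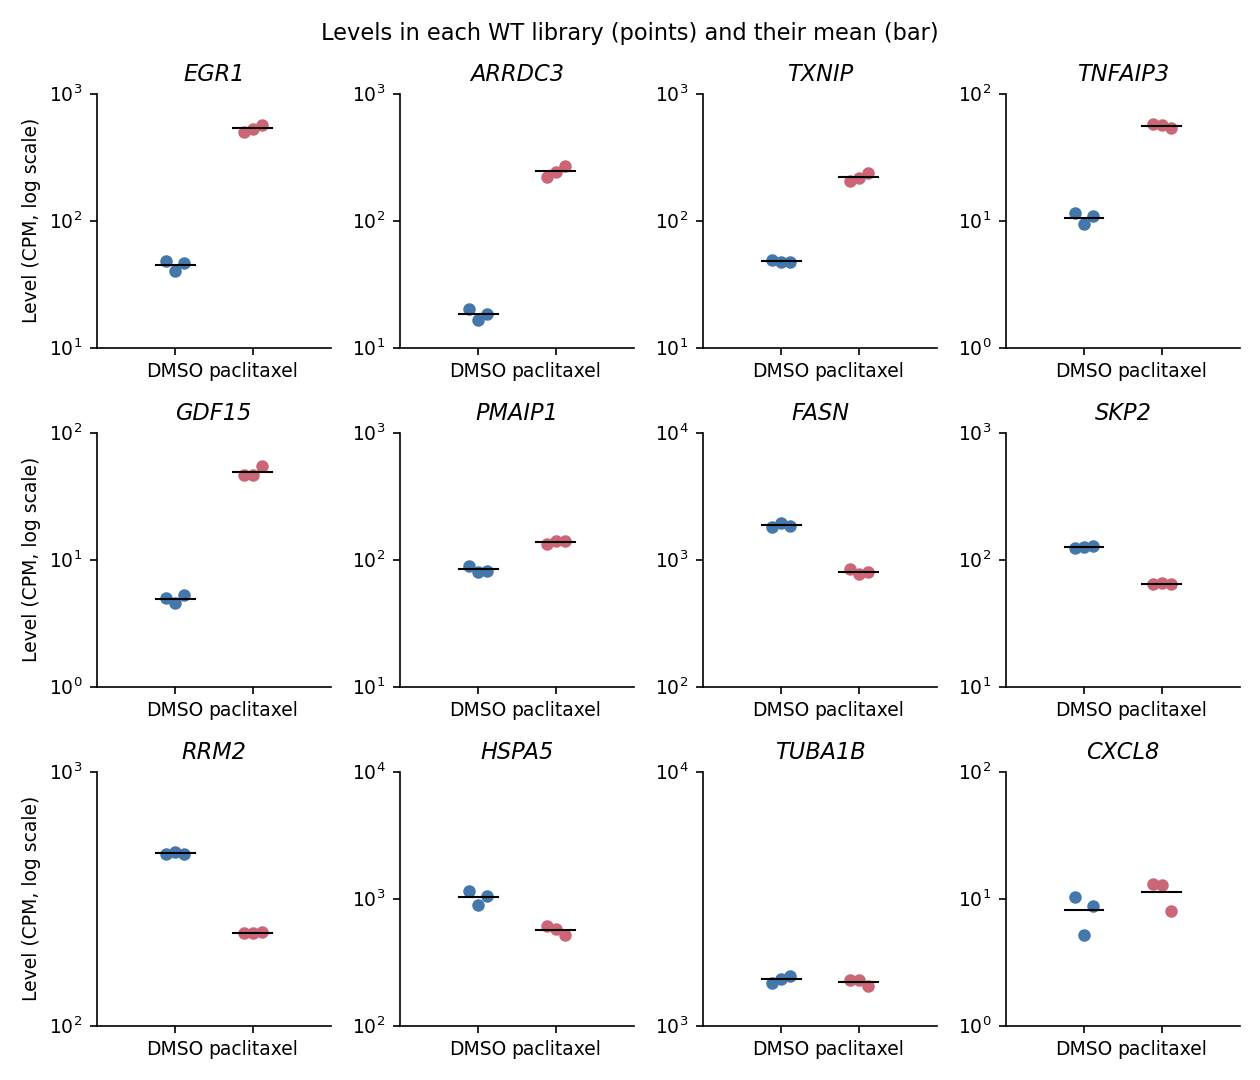
Level of 12 named genes in each WT library (y axis, CPM, log scale), with DMSO and paclitaxel libraries as separate columns of 3 points and the mean as a bar. EGR1, ARRDC3, TXNIP, TNFAIP3, GDF15 and PMAIP1 had all 3 paclitaxel libraries above all 3 DMSO libraries, FASN, SKP2, RRM2 and HSPA5 had them below, and TUBA1B and CXCL8 overlapped.

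Among the tubulins, the proteins paclitaxel binds, members of lower level rose and the most abundant ones moved little. All genes showed a like pattern by level, with 49% higher between 0.1 and 1 CPM and 11.6% higher at 100 CPM or more. The counts of tubulin genes below are therefore a description. Tubulin messages are degraded when free tubulin dimers are plentiful, a feedback known as autoregulation. Of the 6 alpha-tubulin genes tested, 4 rose and 0 fell, and of the 6 beta-tubulin genes 4 rose and 1 fell. TUBB2A had 18.5, 18 and 17.1 CPM in DMSO and 40.2, 42.5 and 44.5 CPM in paclitaxel, a change of 1.25 ± 0.05. TUBB3, the class III isotype whose level has been linked to taxane resistance, had 1.38, 1.59 and 1.39 and 3.85, 3.28 and 3.09 CPM (1.23 ± 0.13). TUBA1A rose from 49.1 ± 1.95 to 77.3 ± 2.48 CPM (0.66 ± 0.04), TUBA4A by 0.29 ± 0.04 and TUBB6 by 0.16 ± 0.05, a call that was lost without the DMSO library that stood apart (adjusted p = 0.0528). TUBAL3 (1.40 ± 0.31) and TUBA8 (1.85 ± 0.51) rose at levels under 1 CPM, and TUBB1 rose to 0.114 CPM from below the floor. The general isotypes moved little. TUBA1B had 1474, 1521 and 1572 CPM and 1507, 1514 and 1432 CPM (-0.04 ± 0.06, adjusted p = 0.606), TUBA1C changed (-0.07 ± 0.04) and TUBB4B (-0.05 ± 0.03), and none of these passed, though library totals called the last 2 higher (0.08 and 0.11). TUBB fell (-0.19 ± 0.04), which library totals reduced to -0.04 (adjusted p = 0.328). Summed over the list, beta-tubulin transcripts went from 2827 ± 27.7 to 2579 ± 50.4 CPM and alpha-tubulin transcripts from 2284 ± 50.5 to 2269 ± 64.4. Tubulin genes are close copies, and the sources used here do not say how reads that fit several of them were counted.

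Microtubule nucleation genes fell almost as a set on TMM factors. Of the 13 genes for gamma-, delta- and epsilon-tubulin and the gamma-tubulin complex, 12 fell and 1 rose, with a median of -0.39. With library totals 8 fell and 1 rose (median -0.23). TUBGCP6 (-0.80 ± 0.04), TUBGCP5 (-0.73 ± 0.04) and TUBGCP3 (-0.66 ± 0.03) led the falls, and the rise was TUBG2 (0.10 ± 0.04), a call lost with DESeq2 (adjusted p = 0.0848) and without every WT library but paclitaxel replicate 3. Tubulin chaperones and modifying enzymes had 15 of 26 lower (57.7%) and 4 higher (median -0.26), and 13 lower with 6 higher with library totals (median -0.11). Among all genes of 10 CPM or more 57.8% to 67.4% fell, so that count is no result about the list. TBCD, which assembles the tubulin dimer, fell (-0.86 ± 0.03) and the ligase TTLL7 (-0.84 ± 0.05), while ATAT1, the alpha-tubulin acetyltransferase, rose by 0.32 ± 0.04 and the deglutamylase AGBL3 by 0.59 ± 0.10. Microtubule-associated proteins split, 11 higher and 18 lower of 40 (median -0.07, and 0.09 with library totals). MAP1A rose from 2.96 ± 0.0984 to 6.96 ± 0.377 CPM (1.23 ± 0.07) and MAPT, which encodes tau, fell from 4.08 ± 0.201 to 2.85 ± 0.394 CPM (-0.52 ± 0.12). Of the kinesins 27 of 38 fell and 7 rose (median -0.21), against 57.8% to 67.4% lower among all genes of 10 CPM or more, and with library totals 18 fell and 11 rose (median -0.05). Among them were the mitotic motors KIF15 at -0.63 ± 0.04 and KIF22 at -0.58 ± 0.04. KIF17, a ciliary and dendritic motor, rose from 2.63 ± 0.135 to 6.64 ± 0.539 CPM (1.34 ± 0.09). Cytoplasmic dynein and dynactin had 18 of 26 lower, a share near that of all genes of 100 CPM or more, and 12 lower with 7 higher with library totals. PAFAH1B1 (-0.45 ± 0.03), the LIS1 regulator of dynein, fell. CEP centrosome proteins had 27 of 38 lower (71.1%), against 57.8% to 67.4% among all genes of 10 CPM or more. With library totals 19 fell and 11 rose (median -0.10). CEP131 fell (-0.90 ± 0.06). Of axonemal genes 16 of 26 were higher and 3 lower (median 1.05). They are genes of low level, of which 49% rose over all genes between 0.1 and 1 CPM, and some passed the filter through the paclitaxel groups, so the count is a description. The dynein heavy chains DNAH17 (5.06 ± 0.22) and DNAH10 (3.15 ± 0.15) reached 2.6 and 3.16 CPM.

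Genes that export or degrade taxanes moved by small amounts of RNA. ABCB1 held 2 counts over the 3 DMSO libraries and 66 over the 3 paclitaxel libraries, a ratio of 36 (95% exact binomial interval 9.57 to 303, counting error only). Its level in paclitaxel was 0.237 ± 0.0607 CPM. ABCC2 rose from 3.88 ± 0.0408 to 8.57 ± 0.55 CPM (1.14 ± 0.08) and ABCG2 from 11.3 ± 1.05 to 18.3 ± 0.489 CPM (0.69 ± 0.06), both efflux pumps. CYP1B1 rose from 13.1 ± 0.499 to 24.1 ± 1.23 CPM (0.88 ± 0.07). The hepatic taxane hydroxylase CYP2C8 (3 counts in DMSO and 30 in paclitaxel, ratio 10.9, interval 3.39 to 55.8) stayed under 1 CPM. ABCC3 fell from 51.3 ± 6.15 to 30.4 ± 0.237 CPM (-0.75 ± 0.14), and SLCO1B3, a taxane uptake carrier, from 3.02 ± 0.0912 to 2 ± 0.195 CPM (-0.60 ± 0.12). In all, 8 of the 12 genes of this list rose and 3 fell.

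The replication machinery fell in near unison. Of 42 genes for origin licensing and the fork, 40 fell (95.2%) and 0 rose, with a median log2 fold change of -0.55. Over all genes 32.1% fell with a median of 0.03. Among all genes of 10 CPM or more, nearer the level of this list, 57.8% to 67.4% fell with medians of -0.15 to -0.18. MCM6, a subunit of the replicative helicase, had 200, 208 and 197 CPM in DMSO and 105, 103 and 108 in paclitaxel (-0.94 ± 0.03). MCM5 fell (-0.95 ± 0.03) and POLA2, of the primase complex, (-0.99 ± 0.09). Nucleotide synthesis genes followed, with 22 of 24 lower. RRM2, the S-phase subunit of ribonucleotide reductase, had 474, 484 and 473 CPM and 232, 231 and 234 CPM (-1.04 ± 0.03), with no overlap. DTYMK (-0.67 ± 0.04), which makes thymidine diphosphate, also fell. UHRF1, which carries DNA methylation through replication, fell (-0.88 ± 0.04), and the histone chaperones CHAF1A (-0.86 ± 0.04) and ASF1B (-0.93 ± 0.05) fell too.

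Replication genes are known targets of E2F factors, so the 250 bases before each gene's start were searched in the RefSeq promoters of GRCh38.p14 (13024 of the genes tested had one). The letters TTTCCCGC, TTTCGCGC, TTTGCCGC and TTTGGCGC were searched on both strands, and matches can overlap. They occurred in 4.12% of all these promoters and in 12 of the 35 available for the replication list (34.3%). The homologous recombination list and the spindle checkpoint and kinetochore list, which also fell, had them in 2 of 29 promoters each (6.9%). The replication-dependent histones, which rose, had them in 5 of 25 (20%). Whether the letters go with the falls was not tested. The promoters below belong to MCM6 and POLA2 of the replication list and to UHRF1 from outside it, all with large falls. They are written in the direction of transcription and have the E2F letters in capitals. In MCM6 each of the 2 stretches in capitals holds overlapping matches on both strands.
MCM6, chr2:135876492-135876625, minus strand: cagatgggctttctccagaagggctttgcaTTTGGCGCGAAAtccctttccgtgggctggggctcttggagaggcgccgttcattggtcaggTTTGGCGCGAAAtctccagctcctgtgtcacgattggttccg
POLA2, chr11:65261879-65261946, plus strand: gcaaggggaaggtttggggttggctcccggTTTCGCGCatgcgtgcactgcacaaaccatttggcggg
UHRF1, chr19:4909457-4909500, plus strand: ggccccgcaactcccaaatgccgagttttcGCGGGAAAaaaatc
The match is a description of the letters and was not tested as a site.

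Mitotic genes fell as well. The shares lower in their lists, 80% to 96%, stand beside the 57.8% to 67.4% of all genes of 10 CPM or more that fell. In the spindle checkpoint and kinetochore list 32 of 36 fell and 4 rose (median -0.41). SPC24 (-1.03 ± 0.05), CENPK (-0.89 ± 0.04) and SPC25 (-0.81 ± 0.05), all kinetochore subunits, led the falls, and CENPH rose by 0.50 ± 0.05. Mitotic kinases and entry factors had 24 of 25 lower and 0 higher, with AURKB at -0.75 ± 0.04 and the phosphatase CDC25C at -0.78 ± 0.05. The anaphase-promoting complex and its co-factors had 16 of 20 lower, including its ubiquitin-conjugating enzyme UBE2C, from 143 ± 7.69 to 95 ± 3.32 CPM (-0.59 ± 0.05). Cytokinesis genes had 14 of 17 lower, led among those at 1 CPM or more by PRC1 (-0.91 ± 0.20) and the non-muscle myosin MYH10 (-0.80 ± 0.03). Condensin and cohesin genes had 19 of 23 lower, with NCAPG2 at -0.80 ± 0.03, and rises of 0.26 ± 0.04 and 0.36 ± 0.04 for the cohesin loader NIPBL and the acetyltransferase ESCO1. All 20 genes of the anaphase-promoting list and all 25 of the mitotic kinase list were tested. With library totals 25 of 36 checkpoint and kinetochore genes, 18 of 25 mitotic kinase genes and 11 of 20 anaphase-promoting genes fell. So did 13 of 17 cytokinesis genes and 15 of 23 condensin and cohesin genes. In the same order 4, 0, 3, 3 and 4 genes rose, and the list medians lay between -0.25 and -0.16.

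Genes of the G1 to S switch fell more often than they rose, and their inhibitors went both ways. Of 29 cyclins, kinases, inhibitors and E2F genes, 19 fell (65.5%), 9 rose and 1 did not pass. That share lies within the 57.8% to 67.4% of all genes of 10 CPM or more that fell, so the count is no result about the list. Its median was -0.41 (-0.25 with library totals), against -0.15 to -0.18 for those genes. SKP2, the ubiquitin ligase subunit that destroys p27, had 124, 126 and 127 CPM in DMSO and 64.7, 65.5 and 64.2 in paclitaxel (-0.96 ± 0.03). Cyclin E1 (CCNE1, -0.89 ± 0.06), CDK2 (-0.69 ± 0.04), CDK4 (-0.53 ± 0.04), cyclin D1 (CCND1, -0.42 ± 0.05) and cyclin E2 (CCNE2, -0.47 ± 0.04) fell. The pocket proteins fell together, RB1 (-0.57 ± 0.03), RBL1 (-0.63 ± 0.04) and RBL2 (-0.60 ± 0.04). Of the E2F factors, E2F8 (-0.83 ± 0.05), E2F2 (-0.69 ± 0.10), E2F1 (-0.59 ± 0.04), E2F7 (-0.31 ± 0.03) and E2F4 (-0.30 ± 0.03) fell, and E2F6 (0.20 ± 0.04) rose. CDKN1A, which encodes p21, had 14.7, 11.7 and 14 CPM and 18.7, 19.3 and 16.7 CPM (0.43 ± 0.07), with no overlap. CDKN2D rose by 0.19 ± 0.05, CDKN2C fell (-0.58 ± 0.04), and CDKN1B, which encodes p27, fell (-0.15 ± 0.04) (0.00 with library totals). CDK6 (0.16 ± 0.03) and FBXW7 (0.37 ± 0.04), which marks cyclin E for destruction, rose. CCND2, another D-type cyclin, rose from 0.392 ± 0.0136 to 1.7 ± 0.0158 CPM (2.12 ± 0.18), CCND3 did not pass (-0.01 ± 0.03, adjusted p = 0.871, but 0.15 and called higher with library totals), and the dimer partners TFDP1 (-0.53 ± 0.03) and TFDP2 (-0.41 ± 0.03) fell.

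**Figure D3:**
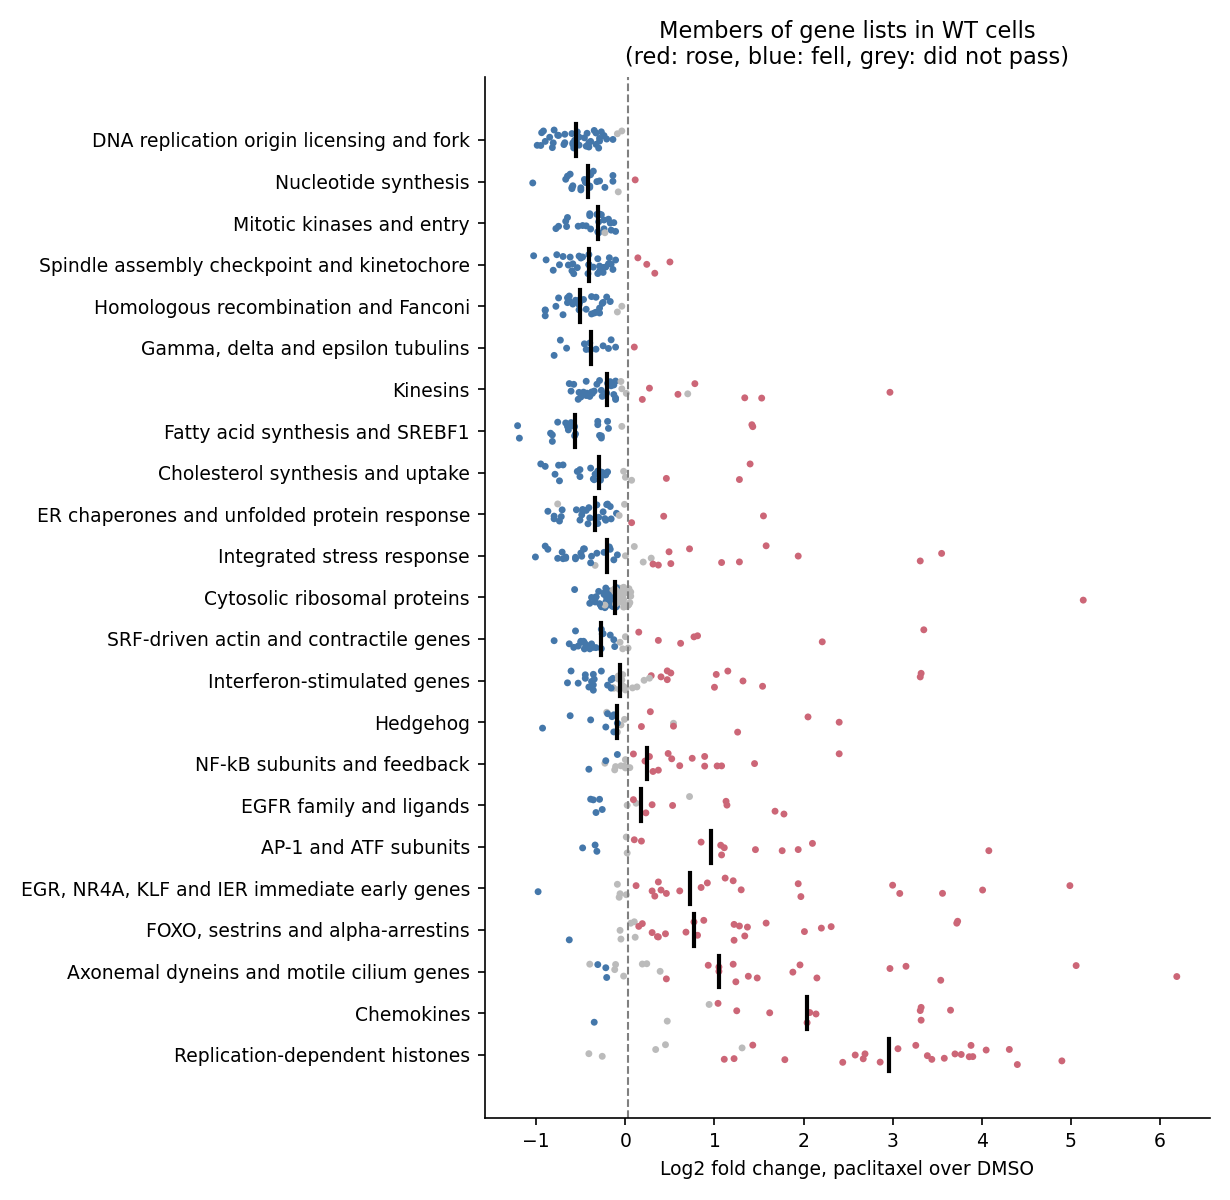
Log2 fold change of paclitaxel over DMSO in WT cells (x axis) for the tested members of 23 gene lists (y axis), 1 point per gene, red where it rose, blue where it fell and grey where it did not pass, with each list's median as a black tick and the median of all genes (0.03) as a dashed line. Replication, homologous recombination and gamma-tubulin lists lie left of 0, and histone, chemokine, FOXO and arrestin, and early response lists lie right of it. Under library totals all points move right by 0.16.

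Histone genes rose while replication genes fell. Replication-dependent histone messages normally end in a stem-loop without a poly(A) tail, so a polyadenylated library holds only their tailed forms. Of the 33 such genes in the counts, 28 passed the filter and 23 of these rose at least 2-fold, with none lower. Genes low in DMSO passed the filter through the paclitaxel groups, so this count is a description. Their summed level went from 26.7 ± 1.48 to 270 ± 39.9 CPM. H2BC4 had 0.541, 0.489 and 0.531 CPM in DMSO and 8.96, 9.02 and 13 in paclitaxel, H4C8 had 0.541, 0.501 and 0.655 and 8.34, 9.99 and 9.79 CPM, and neither overlapped. Of variants and genes of 3' end processing, 11 of 17 fell (median -0.19), with H2AZ2 at -0.59 ± 0.03 and H3-3A at -0.38 ± 0.04. H1-10 rose by 0.52 ± 0.04 and ZNF473, a factor that processes histone 3' ends, by 0.60 ± 0.04. Histone genes are close copies and share the uncertainty on multiply fitting reads.

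DNA repair genes were lower, most of all those of homologous recombination. Homologous recombination and Fanconi anaemia genes had 30 of 32 lower and 0 higher, with a median of -0.51. BRIP1, the helicase partner of BRCA1, had 81.6, 85.2 and 84.9 CPM and 45.3, 46.9 and 42.2 CPM (-0.90 ± 0.04). RAD54L fell (-0.90 ± 0.06) and RAD51D (-0.90 ± 0.05). Other repair pathways had 22 of 30 lower (median -0.26), and 19 lower with 6 higher with library totals (median -0.10). Among the falls was PRKDC, the DNA-dependent protein kinase, from 1195 ± 25.8 to 738 ± 19.9 CPM (-0.70 ± 0.03), and LIG4, which seals end joining, rose by 0.45 ± 0.04. Damage checkpoint genes had 14 of 19 lower (median -0.28), and 11 lower with 4 higher with library totals (median -0.13). The shares lower of these last lists, 73.3% and 73.7%, lie near the 57.8% to 67.4% of all genes of 10 CPM or more. CLSPN fell (-0.66 ± 0.04), as did MRE11 (-0.61 ± 0.03) and ATM (-0.57 ± 0.03). HUS1 rose by 0.37 ± 0.05.

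GDF15, a stress cytokine, had 5.02, 4.54 and 5.26 CPM in DMSO and 46.7, 46 and 54.4 in paclitaxel (3.31 ± 0.08), GADD45A rose from 27.8 ± 1.29 to 60.3 ± 4.09 CPM (1.12 ± 0.11) and PLK2 from 178 ± 11.5 to 297 ± 19.9 CPM (0.74 ± 0.06). SFN (-0.64 ± 0.05), DDB2 (-0.62 ± 0.06) and FDXR (-0.53 ± 0.05) fell. MDM2, a ubiquitin ligase, fell (-0.15 ± 0.03), which library totals brought to 0.00. TP63 rose from 0.0273 to 0.289 CPM, from below the floor.

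The BCL2 family held rises and falls, and 3 of its BH3-only genes rose at 1 CPM or more in paclitaxel. These small proteins trigger death by engaging the guardians BCL2, BCL-XL and MCL1. PMAIP1, which encodes NOXA, an antagonist of MCL1, had 89.4, 80.3 and 81 CPM in DMSO and 133, 139 and 140 in paclitaxel (0.71 ± 0.04). BCL2L11, which encodes BIM, rose from 19.9 ± 1.07 to 30 ± 0.604 CPM (0.60 ± 0.04) and BMF, a sensor tied to the cytoskeleton, from 1.17 ± 0.102 to 3.21 ± 0.493 CPM (1.45 ± 0.55). The call of BMF was lost when any WT library was left out (adjusted p = 0.0594 to 0.105). HRK (2.63 ± 0.45) rose at under 1 CPM, and BAD (-0.35 ± 0.04) and BID (-0.47 ± 0.05) fell. BBC3, which encodes PUMA, fell (-0.23 ± 0.10), a call lost with library totals (-0.07) and without any single WT library but paclitaxel replicate 1 (adjusted p = 0.061 to 0.19). Of the guardians, BCL2L1 (BCL-XL) fell from 363 ± 10.3 to 281 ± 6.61 CPM (-0.37 ± 0.03), BCL2 fell (-0.28 ± 0.04), BCL2L2 rose by 0.20 ± 0.04, and MCL1 did not pass (-0.11 ± 0.07, adjusted p = 0.226, and -0.17 with 0.0413 without the DMSO library that stood apart). BCL2L10 held 1 count in DMSO and 45 in paclitaxel, a ratio of 49.1 (interval 8.37 to 1980). Of the pore formers BAX fell (-0.44 ± 0.07) and BOK (-0.62 ± 0.05), and BAK1 rose by 0.19 ± 0.05. In all 8 of 21 rose, 10 fell and 3 did not pass (median -0.11, and 0.05 with library totals).

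Of 33 TNF ligands and receptors 20 rose and 8 fell (median 0.64). Only 19 reached 1 CPM in either treatment, and 49% of all genes between 0.1 and 1 CPM rose, so the count is a description. TNFSF15, the ligand TL1A, had 0.222, 0.244 and 0.305 CPM and 4.56, 3.74 and 4.19 CPM (4.02 ± 0.16), and TNFRSF1A, the main TNF receptor, fell from 72 ± 1.58 to 53.7 ± 0.879 CPM (-0.42 ± 0.04). Of caspases and their inhibitors 11 of 23 fell and 3 rose (median -0.10, and 0.06 with library totals). BIRC3, an inhibitor of apoptosis, rose from 30.1 ± 2.58 to 55.7 ± 1.88 CPM (0.89 ± 0.10) and CFLAR, which blocks caspase-8, by 0.26 ± 0.04, and both gasdermins GSDMD and GSDME fell (-0.67 ± 0.04 and -0.67 ± 0.04).

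**Figure D4:**
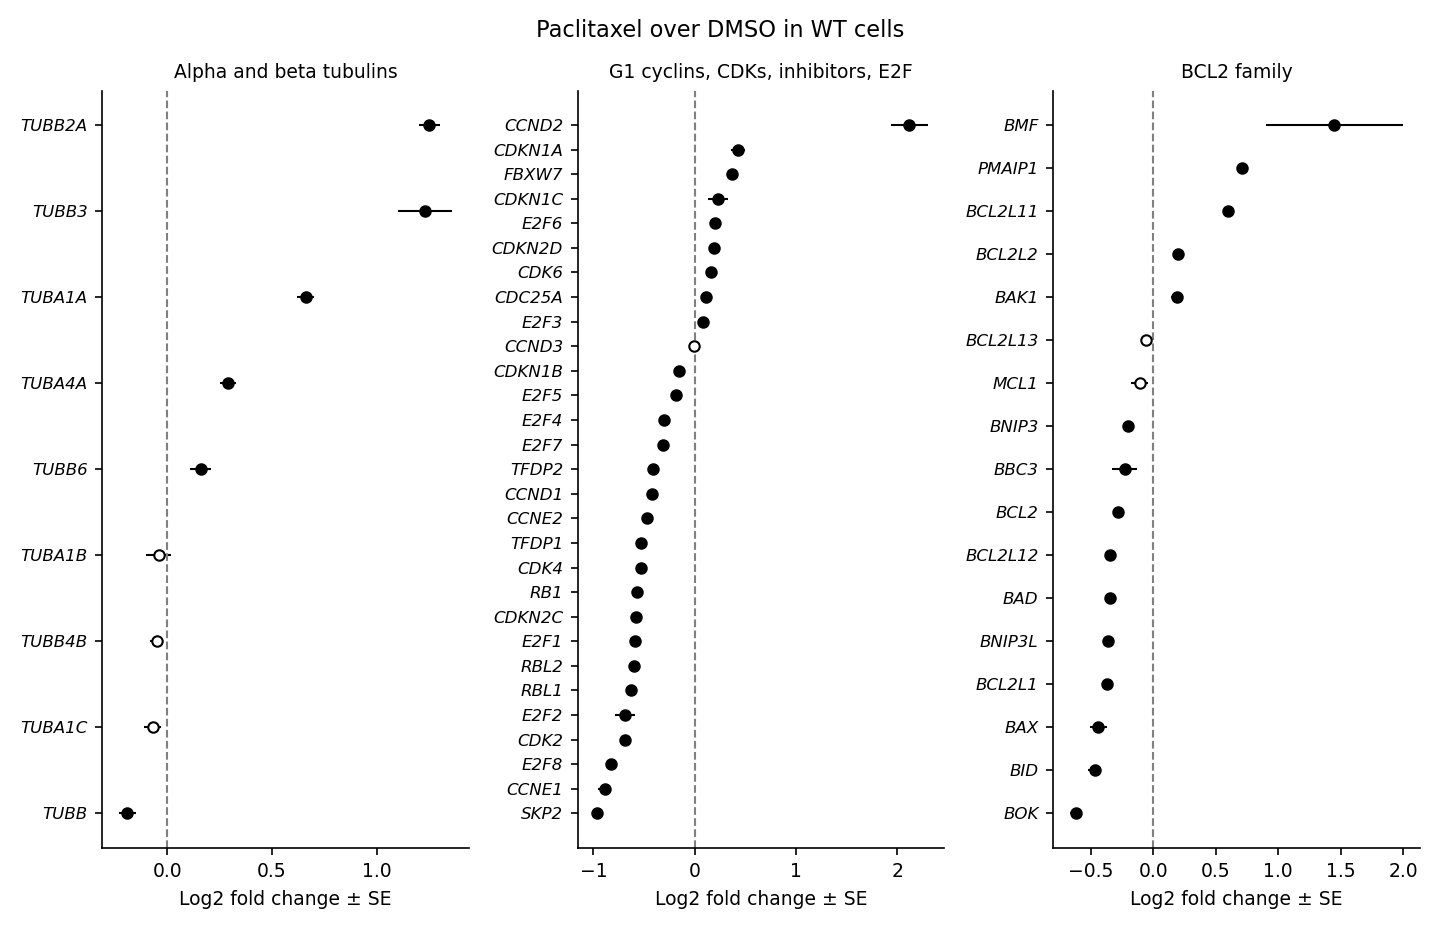
Log2 fold change ± standard error (x axis) of paclitaxel over DMSO in WT cells for every tested tubulin, G1 switch and BCL2 family gene with a mean of 1 CPM or more in either treatment (y axis). Filled points passed an adjusted p below 0.05 and open points did not. TUBB2A and TUBB3 lie furthest right among tubulins, CCND2 among G1 genes and BMF in the BCL2 family, and SKP2 lies furthest left. Library totals move every point right by about 0.16.

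NF-kB feedback genes rose more often than they fell. In resting cells inhibitors hold NF-kB in the cytoplasm, and its targets include those inhibitors. Of 26 subunit and feedback genes 15 rose and 3 fell (median 0.24). TNFAIP3, which encodes the deubiquitinase A20, had 11.5, 9.41 and 10.8 CPM in DMSO and 57.2, 56.7 and 53.9 in paclitaxel (2.40 ± 0.17). ZC3H12A, an RNase that destroys cytokine messages, rose from 6.06 ± 0.532 to 16.5 ± 1.76 CPM (1.45 ± 0.08) and NFKBIE, an inhibitor of NF-kB, from 10.2 ± 1.39 to 21.5 ± 0.605 CPM (1.08 ± 0.08). Of 13 chemokine genes tested 10 rose and 1 fell (median 2.04). Of these genes 6 reached 1 CPM in either treatment, and several passed the filter through the paclitaxel groups, so the count is a description, beside 49% of all genes between 0.1 and 1 CPM that rose. Their summed level went from 18.7 ± 2.5 to 27.1 ± 2.09 CPM. CXCL2 had 1.5, 1.04 and 1.15 and 2.28, 2.52 and 2.82 CPM (1.04 ± 0.16), CXCL3 0.637, 0.428 and 0.361 and 1.45, 1.36 and 1.65 CPM (1.62 ± 0.28), and CXCL1 0.0966, 0 and 0.0339 and 0.474, 0.532 and 0.444 CPM (3.32 ± 0.41). CCL26 rose from 0.75 ± 0.159 to 3.29 ± 0.141 CPM (2.14 ± 0.14) and CXCL16 from 0.514 ± 0.0821 to 1.21 ± 0.164 CPM (1.25 ± 0.19). CCL20 (0.313 CPM in paclitaxel) and CXCL11 (0.229 CPM) rose and stayed under 1 CPM. CXCL10 went from 3 to 34 counts (ratio 12.4, interval 3.89 to 62.9) and CX3CL1 from 3 to 43 counts (ratio 15.6, interval 5 to 78.7). CXCL8, a chemokine of neutrophils, had 10.3, 5.2 and 8.76 CPM and 13, 12.8 and 8.01 CPM, overlapped and did not pass (adjusted p = 0.304). CCL28 fell (-0.35 ± 0.07).

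An NF-kB site was searched by its usual consensus on both strands in the same promoters. It occurred in 11.5% of all promoters, in 6 of the 10 available for chemokines and in 8 of the 23 for NF-kB subunits and feedback. The promoters below are shown because CXCL1, CXCL2 and CXCL3 rose together, with the matching letters in capitals, and TNFAIP3 for comparison.
CXCL1, chr4:73869284-73869354, plus strand: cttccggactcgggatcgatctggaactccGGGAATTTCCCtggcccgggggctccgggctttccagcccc
CXCL2, chr4:74099233-74099303, minus strand: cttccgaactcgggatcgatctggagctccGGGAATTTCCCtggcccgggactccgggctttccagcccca
CXCL3, chr4:74038728-74038798, minus strand: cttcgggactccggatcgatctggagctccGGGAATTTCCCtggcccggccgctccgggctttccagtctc
TNFAIP3, chr6:137867162-137867243, plus strand: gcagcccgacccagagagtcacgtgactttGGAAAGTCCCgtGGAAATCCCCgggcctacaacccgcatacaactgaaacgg
The CXCL genes carried the same letters, 68, 67 and 68 bases before the start, and their flanks were near-identical, as those of tandem paralogs are. A match is a description of the letters.

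Interleukins and secreted factors of senescence were mixed in level. Of 22 interleukins and colony-stimulating factors 15 rose and 3 fell (median 0.90), while the summed level went from 341 ± 16.7 to 298 ± 4.56 CPM. CSF2, which encodes GM-CSF, rose from 1.29 ± 0.105 to 4.83 ± 0.66 CPM (1.91 ± 0.11), and IL6 from 0.596 ± 0.135 to 1.73 ± 0.286 CPM (1.53 ± 0.16). IL11, a cytokine linked to bone metastasis, had 169, 146 and 177 CPM and 91.8, 86.3 and 82.5 CPM, a change of -0.92 ± 0.10. Of the senescence-associated list 18 of 25 rose and 5 fell (median 1.06). Among those lower were LMNB1 (-0.57 ± 0.03), a lamin that is lost in senescent cells, and PLAU (-0.63 ± 0.04), which encodes urokinase. Of factors linked to bone metastasis 16 of 23 rose and 2 fell, with SPP1, osteopontin, going from 1.42 ± 0.237 to 5.04 ± 0.402 CPM (1.82 ± 0.15). In the interleukin, senescence and bone lists 12, 18 and 19 genes reached 1 CPM in either treatment. Among all genes 49% rose between 0.1 and 1 CPM and 43.9% between 1 and 10 CPM, so these counts are a description.

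Interferon-stimulated genes showed no common direction. No type I or III interferon gene was among the genes analysed. Of 42 interferon-stimulated genes 12 rose, 16 fell and 14 did not pass, and the median was -0.06 (0.10 with library totals). ISG15 had 12, 11.9 and 11.4 CPM in DMSO and 8.7, 7.39 and 8.37 in paclitaxel (-0.53 ± 0.07), and IFI44 (-0.65 ± 0.06) and GBP1 (-0.61 ± 0.05) fell. IFI44L (1.02 ± 0.12), GBP2 (1.15 ± 0.23) and ISG20 (1.32 ± 0.17) rose at 3 CPM or less. In the list for cGAS-STING and nucleic acid sensing 6 of 17 rose and 8 fell, with STING1 at 0.30 ± 0.05 and MAVS, the adaptor of RNA sensing, at -0.58 ± 0.03. TLR4, which is not a nucleic acid sensor and at which taxanes act in mouse cells, rose by 0.59 ± 0.05. Of MHC class I and antigen processing genes 8 of 33 rose and 13 fell (median -0.04, and 0.12 with library totals). HLA-E rose from 71.1 ± 2.68 to 104 ± 0.897 CPM (0.55 ± 0.03) and HLA-B from 12.3 ± 1.04 to 17.3 ± 0.831 CPM (0.50 ± 0.06), and the peptide transporter TAP2 fell (-0.49 ± 0.04) and CD47, a signal against phagocytosis, (-0.53 ± 0.03). Of the cytidine deaminases, APOBEC3B fell from 30.2 ± 0.703 to 19.9 ± 0.628 CPM (-0.60 ± 0.04) and APOBEC3C (-0.41 ± 0.05).

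Early response genes rose broadly. These genes are switched on within minutes by growth factors or stress through SRF and its partners, and many encode transcription factors. Of 24 EGR, NR4A, KLF and IER genes 19 rose and 1 fell (median 0.73), after 2 days of drug. EGR2 rose from 0.2 ± 0.0523 to 3.3 ± 0.099 CPM (4.01 ± 0.21) and ARC, a synaptic early gene, from 4.87 ± 0.286 to 41.3 ± 2.33 CPM (3.08 ± 0.11). KLF2, the exception, fell from 15 ± 0.677 to 7.63 ± 0.552 CPM (-0.98 ± 0.06). Over all KLF genes 8 of 14 rose and 4 fell, with KLF10 at 1.12 ± 0.04 and KLF4 at 0.85 ± 0.07. A CArG box, the site of SRF, was present in 1.08% of all promoters. That of EGR1 is shown because it gained most among these genes, with its CArG boxes in capitals.
EGR1, chr5:138465344-138465435, plus strand: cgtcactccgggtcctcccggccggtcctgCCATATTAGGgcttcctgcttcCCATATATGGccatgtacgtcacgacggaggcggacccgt

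Most AP-1 subunits rose. FOS had 14.2, 9.47 and 13.5 CPM in DMSO and 53.1, 51.9 and 54.7 in paclitaxel (2.10 ± 0.20), ATF3, a stress subunit, 13.7, 10.9 and 12.9 and 48.2, 48.8 and 47.4 (1.94 ± 0.16), and JUNB 22.9, 19.6 and 22.9 and 59.2, 59.8 and 61.1 (1.46 ± 0.06). None of these overlapped. JUN rose from 151 ± 15.7 to 273 ± 19.9 CPM (0.85 ± 0.12), FOSB by 1.11 ± 0.22, MAFF by 1.07 ± 0.07, BATF2 by 1.08 ± 0.16 and MAFK by 0.18 ± 0.04, and MAF rose to 0.391 CPM. JUND (-0.48 ± 0.07) and FOSL1 (-0.34 ± 0.07), the FRA1 gene, fell. In all 11 of 16 rose and 3 fell.

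Genes of the EGFR family and of other growth factors changed both ways, 8 of 16 higher and 5 lower in the EGFR list. The EGFR ligand AREG had 3.11, 2.57 and 2.56 CPM and 9.59, 9.62 and 9.34 CPM (1.78 ± 0.09), EREG rose from 173 ± 1.84 to 249 ± 6.93 CPM (0.53 ± 0.03), HBEGF from 54.2 ± 1.33 to 63.7 ± 0.723 CPM (0.23 ± 0.04), EGF by 1.13 ± 0.17 and BTC by 1.68 ± 0.37, the last under 1 CPM. TGFA did not pass (0.02 ± 0.05, but 0.18 and called with library totals), and NRG1 fell (-0.29 ± 0.04). The receptor EGFR fell from 751 ± 25.4 to 574 ± 7.03 CPM (-0.39 ± 0.03) and ERBB2 from 57.9 ± 0.888 to 45.2 ± 1.5 CPM (-0.36 ± 0.03), and ERBB4 did not pass (0.72 ± 0.44). The receptor inhibitor ERRFI1 rose by 0.30 ± 0.08 and LRIG1 fell (-0.33 ± 0.05). ERK feedback genes went both ways, 9 higher and 6 lower of 23 (median -0.02, and 0.14 with library totals). The nuclear phosphatases DUSP1 (1.15 ± 0.18) and DUSP10 (1.20 ± 0.13), which act on stress kinases, rose, and DUSP4 (-0.45 ± 0.05), SPRY1 (-0.33 ± 0.07) and PHLDA1 (-0.24 ± 0.03) fell. Of FGF, VEGF, PDGF and IGF genes 23 of 44 rose and 14 fell. The insulin receptor gene INSR fell from 18 ± 0.587 to 8.93 ± 0.385 CPM (-1.01 ± 0.05) and FGF5 from 100 ± 3.43 to 55.8 ± 1.15 CPM (-0.85 ± 0.04), and IGFBP3, which sequesters IGF, rose from 8.96 ± 1.18 to 21.8 ± 1.28 CPM (1.29 ± 0.08).

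FOXO and alpha-arrestin genes rose. FOXO factors enter the nucleus when AKT is inactive. Of the list of FOXO factors, sestrins, alpha-arrestins and their targets 21 of 27 rose and 1 fell (median 0.77), and the summed level went from 530 ± 4.79 to 1215 ± 61.6 CPM. ARRDC4 had 2.38, 2.2 and 2.28 CPM in DMSO and 29.4, 29.7 and 31.4 in paclitaxel (3.72 ± 0.13). FOXO1 rose from 3.16 ± 0.217 to 8.13 ± 0.179 CPM (1.37 ± 0.07), FOXO4 from 4.58 ± 0.0863 to 8.47 ± 0.782 CPM (0.88 ± 0.07) and PDK4, a brake on pyruvate entry, from 0.483 ± 0.0488 to 2.41 ± 0.354 CPM (2.31 ± 0.19). ARRDC1, an arrestin of vesicle budding, fell (-0.63 ± 0.05). TXNIP and ARRDC4 are known targets of the glucose sensor MondoA, which binds a carbohydrate response element, searched as a pair of CACGNG with 5 bases between them. It occurred in 0.107% of promoters, and TXNIP is shown as the 1 gene of the list that had it.
TXNIP, chr1:145996621-145996697, minus strand: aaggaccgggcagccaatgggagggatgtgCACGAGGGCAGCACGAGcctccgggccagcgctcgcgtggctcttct

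The endoplasmic reticulum programme fell. The unfolded protein response normally raises chaperones of this compartment when folding fails. Of 33 chaperone and unfolded protein response genes 27 fell and 3 rose (median -0.34), and the summed level went from 8202 ± 348 to 6058 ± 143 CPM. HSPA5, the chaperone BiP, had 1154, 898 and 1057 CPM in DMSO and 606, 579 and 519 in paclitaxel (-0.87 ± 0.18). PDIA4 (-0.80 ± 0.06), a disulfide isomerase, and SDF2L1 (-0.80 ± 0.11) fell, and CREB3L1, a membrane-tethered factor, rose from 4.05 ± 0.33 to 11.9 ± 0.369 CPM (1.55 ± 0.11). The ER stress response element, searched as CCAAT and CCACG with 9 bases between them on both strands, occurred in 0.123% of all promoters and in 7 of the 30 available for this list (23.3%). HSPA5 is shown with HSP90B1 and CRELD2, which were chosen after their values were seen for carrying the element and fell (-0.72 ± 0.09 and -0.55 ± 0.06).
HSPA5, chr9:125241361-125241439, minus strand: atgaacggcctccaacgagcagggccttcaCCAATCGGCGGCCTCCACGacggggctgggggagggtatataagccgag
HSP90B1, chr12:103930186-103930369, plus strand: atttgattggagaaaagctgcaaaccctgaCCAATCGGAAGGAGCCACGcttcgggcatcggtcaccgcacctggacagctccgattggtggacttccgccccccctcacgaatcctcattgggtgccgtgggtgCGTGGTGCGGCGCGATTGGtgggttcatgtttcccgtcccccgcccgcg
CRELD2, chr22:49918524-49918602, plus strand: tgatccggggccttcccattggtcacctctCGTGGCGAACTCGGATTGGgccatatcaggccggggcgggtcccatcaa

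Targets of ATF4 did not rise as a set. Of 38 integrated stress response genes 11 rose and 22 fell (median -0.21, and -0.05 with library totals). PSAT1, of serine synthesis, had 172, 154 and 168 CPM and 84.1, 82.7 and 79.4 CPM (-1.01 ± 0.06), and the glycine carrier SLC6A9 (-0.90 ± 0.09) and VLDLR (-0.87 ± 0.12) fell. STC2, a secreted glycoprotein, rose from 2.2 ± 0.285 to 6.6 ± 0.764 CPM (1.58 ± 0.09). Aminoacyl-tRNA synthetases had 18 of 23 lower and 2 higher (median -0.24), with MARS1 at -0.49 ± 0.03. With library totals 11 of them fell and 5 rose (median -0.09), and 57.8% to 67.4% of all genes of 10 CPM or more fell on TMM factors. Of cytosolic and mitochondrial heat shock chaperones 22 of 39 fell and 7 rose (median -0.13, and 0.02 with library totals). HSPA8 fell from 3497 ± 332 to 2552 ± 188 CPM (-0.45 ± 0.13, a call lost with library totals at an adjusted p of 0.0566), and HSPB8, of chaperone-assisted autophagy, rose from 1.96 ± 0.268 to 6.23 ± 0.247 CPM (1.67 ± 0.11). HMOX1, haem oxygenase, rose from 8.39 ± 0.394 to 20.8 ± 0.593 CPM (1.30 ± 0.09), while the NRF2 and glutathione list as a whole had 13 of 46 higher and 21 lower (median -0.07, and 0.09 with library totals). NDRG1 (1.55 ± 0.15), a hypoxia gene, rose, and the glycolytic phosphofructokinases PFKL (-0.77 ± 0.04) and PFKP (-0.74 ± 0.04) fell. Autophagy and lysosome genes were split, 20 higher and 19 lower of 51, with rises in the receptor SQSTM1, from 654 ± 30.3 to 921 ± 58.4 CPM (0.50 ± 0.06), and in MAP1LC3B (0.49 ± 0.03) and GABARAPL1 (0.91 ± 0.05).

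Genes of lipid synthesis fell. Of 24 genes for fatty acid synthesis and its regulators 21 fell and 2 rose (median -0.57), and their summed level went from 7204 ± 194 to 4140 ± 145 CPM. SREBF1, the master regulator of the pathway, fell from 89.4 ± 1.7 to 39.1 ± 2.35 CPM, SCD, which desaturates stearate, from 1851 ± 65.8 to 1047 ± 53.7 CPM (-0.82 ± 0.07), and FADS2 from 416 ± 10.9 to 233 ± 9.83 CPM (-0.84 ± 0.04). DGAT2, which completes triglycerides, rose from 1.22 ± 0.142 to 3.22 ± 0.669 CPM (1.42 ± 0.14). Cholesterol synthesis and uptake had 22 of 28 lower and 3 higher, with FDPS, farnesyl diphosphate synthase, at -0.90 ± 0.03 and MVD at -0.79 ± 0.05. The exporter ABCA1 rose from 3.37 ± 0.528 to 8.14 ± 1.01 CPM (1.28 ± 0.32) and MYLIP, which degrades the LDL receptor, by 0.46 ± 0.05. Of the TCA cycle 25 of 31 genes fell (median -0.23), with IDH2 at -0.99 ± 0.05, and with library totals 16 fell and 5 rose (median -0.07). Among all genes of 10 CPM or more 57.8% to 67.4% fell on TMM factors. One-carbon, serine and polyamine genes had 16 of 22 lower and 6 higher. Polyamine genes were among the rises, SAT1, which acetylates spermidine, from 29.5 ± 2.52 to 72.4 ± 0.562 CPM (1.29 ± 0.06) and SMOX, spermine oxidase, by 0.78 ± 0.05. SHMT1 (-0.83 ± 0.04) and MTR (-0.72 ± 0.03), enzymes of the folate cycle, fell.

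Genes for the basic machinery moved by small amounts, their direction rests on the scaling, and most of their shares lie near or below the 57.8% to 67.4% of all genes of 10 CPM or more that fell. Cytosolic ribosomal protein genes had 38 of 80 lower and 1 higher, a median of -0.12 that became 0.04 with library totals. Mitochondrial ribosomal proteins had 46 of 76 lower (median -0.15 and 0.01), and proteasome subunits 24 of 34 (median -0.15 and 0.01). Translation factors had 30 of 42 lower (median -0.17 and -0.01). Nuclear pore and transport genes had 34 of 43 lower and kept their sign (median -0.21 and -0.06), with NUP210 at -0.70 ± 0.03 and LMNB2 at -0.56 ± 0.04, and the exportin XPO1 rose by 0.13 ± 0.03. Of the 13 proteins encoded in mitochondria 3 rose and 1 fell, MT-CO3 (-0.14 ± 0.05), which library totals turned to 0.02 and 3 of the single left-out libraries took past the threshold (adjusted p up to 0.137). Respiratory complex I genes of the nucleus had 19 of 37 lower (median -0.11 and 0.05). Among chromatin modifiers 37 of 65 fell (median -0.14, and 0.02 with library totals), and the histone demethylases KDM6B (1.33 ± 0.08) and KDM3A (0.87 ± 0.04) rose.

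Of 35 actin and contractile genes driven by SRF 24 fell and 7 rose (median -0.27), with the summed level going from 20697 ± 402 to 15483 ± 244 CPM. The share lower, 68.6%, is near the 67.4% of all genes of 100 CPM or more. With library totals 21 fell and 10 rose (median -0.11). ACTN4, alpha-actinin, fell from 1449 ± 43 to 935 ± 22.9 CPM (-0.63 ± 0.03), and TAGLN, transgelin, rose from 30.6 ± 1.38 to 53.7 ± 3.34 CPM (0.81 ± 0.05). RHOB, an early response GTPase, rose from 42.8 ± 0.802 to 63.5 ± 3.58 CPM (0.57 ± 0.06), and RAC3 (-0.94 ± 0.07) and PAK1 (-0.60 ± 0.03) fell. Septins, which support cytokinesis and bind microtubules, had 6 of 9 lower (66.7%), within the 57.8% to 67.4% of all genes of 10 CPM or more. Of matrix metalloproteases and inhibitors 17 of 28 rose and 4 fell. In this list and the collagen list below 17 and 21 genes reached 1 CPM in either treatment. Among all genes 49% rose between 0.1 and 1 CPM and 43.9% between 1 and 10 CPM, so the counts of rises in this paragraph are a description. MMP19 rose from 1.2 ± 0.172 to 3.77 ± 0.167 CPM (1.66 ± 0.11), and the inhibitors TIMP2 (-0.29 ± 0.04) and RECK (-0.72 ± 0.08) fell. LOXL2, which crosslinks collagen, had 167, 179 and 168 CPM and 91.2, 84 and 86.8 CPM (-0.97 ± 0.04), LOXL1 fell (-0.99 ± 0.08) and the laminin chain LAMA3 from 87.8 ± 1.75 to 38.9 ± 2.85 CPM. SERPINB2, a plasminogen activator inhibitor, rose from 0.0199 to 2.07 CPM, from below the floor. Collagens had 19 of 32 higher and 7 lower, but COL13A1, a membrane collagen, fell from 232 ± 8.99 to 146 ± 3.59 CPM (-0.67 ± 0.03), and the list sum went from 837 ± 24.8 to 777 ± 18.6 CPM. Integrins had 11 of 23 higher and 7 lower, with ITGA3 at -0.48 ± 0.04 and ITGB8 at 1.05 ± 0.18. SNAI1, a driver of mesenchymal change, rose from 3.2 ± 0.292 to 12 ± 0.6 CPM (1.90 ± 0.09), and KRT8 from 225 ± 3.7 to 323 ± 6.94 CPM (0.52 ± 0.04).

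Developmental pathways held rises and falls. In the TGF-beta and activin list 15 of 30 rose and 7 fell. INHBA, which encodes activin A, rose from 1.81 ± 0.223 to 6.82 ± 0.546 CPM (1.91 ± 0.09) and the inhibitor SMAD7 from 5.5 ± 0.516 to 16.7 ± 1.54 CPM (1.60 ± 0.07), and TGFB1 fell from 53.7 ± 1.21 to 37.8 ± 0.523 CPM (-0.51 ± 0.09). In the BMP list 12 of 22 rose. ID2, an inhibitor of basic helix-loop-helix factors, had 2.59, 2.04 and 2.68 CPM and 13.4, 14.2 and 16.4 CPM (2.59 ± 0.09), ID4 rose by 1.83 ± 0.12, and the receptor BMPR2 fell (-0.64 ± 0.06). In the Notch list 10 of 26 rose and 7 fell. HES1 rose from 2.47 ± 0.295 to 11.2 ± 0.263 CPM (2.18 ± 0.27) and HEY1 from 0.902 ± 0.0806 to 3.12 ± 0.343 CPM (1.79 ± 0.11), both Notch targets, and RBPJ, the pathway's DNA-binding factor, fell (-0.42 ± 0.03). In the Wnt list 18 of 38 rose and 8 fell, with the receptor FZD2 lower (-0.55 ± 0.05). YAP and TAZ genes had 8 of 27 higher and 9 lower (median -0.01, and 0.15 with library totals), with AXL down from 1362 ± 61.6 to 895 ± 11.6 CPM (-0.61 ± 0.03) and the kinase LATS2 up from 38.9 ± 0.857 to 63.7 ± 3.26 CPM (0.71 ± 0.05). Of the clock genes 13 of 21 rose and 3 fell, with NR1D1 up from 4.3 ± 0.324 to 15.6 ± 0.912 CPM (1.86 ± 0.12), PER1 and PER2 by 1.22 ± 0.05 and 1.25 ± 0.08, and BMAL2 down (-0.77 ± 0.04).

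Hedgehog genes both rose and fell. GLI2, the factor targeted elsewhere in the study, had 10.4, 11.4 and 10.6 CPM in DMSO and 6.42, 5.65 and 4.97 in paclitaxel in WT cells (-0.93 ± 0.08, adjusted p = 7.45e-10), with no overlap. GLI1 did not pass (0.54 ± 0.28, adjusted p = 0.0944, but 0.70 and called with library totals). PTCH1 rose from 14.3 ± 0.898 to 16.2 ± 0.662 CPM (0.18 ± 0.06), a call lost without DMSO replicate 1 (adjusted p = 0.0694). Of the ligands SHH (1.26 ± 0.17) and IHH (2.40 ± 0.51) rose at 2 CPM or less and DHH did not pass (-0.21 ± 0.19). GPR161 (-0.39 ± 0.04), a ciliary receptor that restrains the pathway, and the kinase PRKACA (-0.62 ± 0.04) fell, BOC, a co-receptor, rose by 0.28 ± 0.07, and the inhibitor SUFU did not pass (-0.09 ± 0.05). In all 6 of 20 rose and 9 fell (median -0.09, and 0.07 with library totals).

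Lists of genes foreign to breast epithelium held more rises than falls, as did all genes below 10 CPM. Of 25 sarcomere genes 17 rose and 3 fell, of 42 neuronal and synaptic genes 23 rose and 10 fell, and of 42 potassium channels 26 rose and 7 fell. These shares are to be read against the 49% of all genes between 0.1 and 1 CPM that rose. XIRP2, a muscle actin-binding protein, rose from 3.03 ± 0.122 to 11.6 ± 0.402 CPM (1.94 ± 0.08), and RELN, a secreted guidance protein of neurons, from 1.52 ± 0.223 to 21.8 ± 0.634 CPM. NEB went from 0.335 ± 0.164 to 6.26 ± 0.182 CPM, and its log2 fold change ranged from 3.86 to 4.43 when single libraries were left out, the widest range of any called gene of 5 CPM or more. The next were BEST1 (0.24 to 0.59, lowest without paclitaxel replicate 2, and not called without DMSO replicate 1, adjusted p = 0.0614, or in the fit on WT libraries alone, adjusted p = 0.108), ALPP, placental alkaline phosphatase, from 5.85 ± 1.39 to 24 ± 0.943 CPM (1.89 to 2.23), GCNA, a germ cell gene, from 1.4 ± 0.345 to 5.06 ± 0.492 CPM (1.74 to 2.07), and CPNE7, a copine, from 0.361 ± 0.0916 to 5.95 ± 0.305 CPM (3.84 to 4.15). Cytochromes P450 had 16 of 28 higher and 6 lower, with CYP1A1, the target of the aryl hydrocarbon receptor, up from 1.13 ± 0.0596 to 7.56 ± 0.997 CPM (2.74 ± 0.12). The summed level of the neuronal list went from 488 ± 8.4 to 456 ± 8.44 CPM and that of the sarcomere list from 313 ± 1.81 to 309 ± 5.16 CPM.

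Long noncoding RNAs rose more often than they fell. Of 1310 noncoding genes with a mean of 1 CPM or more 685 (52.3%) rose and 225 (17.2%) fell, and of 11787 coding genes with such a mean 2555 (21.7%) rose and 6346 (53.8%) fell. The types were not matched for level, as these noncoding genes took 1.07% of counts in DMSO and these coding genes 97.8%. Over all genes 43.9% rose and 22.2% fell between 1 and 10 CPM, and 57.8% to 67.4% fell at 10 CPM or more. A difference by type apart from level was not tested. Noncoding RNAs took 1.14% of counts in DMSO and 1.53% in paclitaxel. MALAT1 had 405, 432 and 594 CPM in DMSO and 935, 938 and 1004 in paclitaxel (1.01 ± 0.24), and NEAT1, the scaffold of paraspeckles, 275, 266 and 271 and 561, 557 and 548 (1.04 ± 0.04). Neither overlapped. UCA1 rose from 5.8 ± 0.862 to 22.6 ± 3 CPM (1.97 ± 0.11). Of small nucleolar RNA host genes 13 of 26 rose and 2 fell, with SNHG4 at 0.78 ± 0.04 and SNHG17 at 0.81 ± 0.03. LINC02474 held 1 count in DMSO and 320 in paclitaxel, a ratio of 349 (interval 62.2 to 13823). LINC02757 rose from 0.129 ± 0.0719 to 3.2 ± 0.0385 CPM (4.55 ± 0.24), LINC00370 (4.38 ± 0.28) and LINC02348 (4.21 ± 0.28) rose to between 1 and 2 CPM, and LINC01419 and LINC00654 rose to 1.13 and 1.07 CPM from a DMSO mean at or below the floor. CFLAR-AS1 (3.60 ± 0.19) and XPC-AS1 (3.67 ± 0.18) share 17.9% and 34.6% of their exon bases with CFLAR and XPC, and without a stated strand setting reads from a gene and its antisense partner cannot be told apart. MANCR, a noncoding RNA of breast cancer cells, fell from 61 ± 0.284 to 24.7 ± 0.852 CPM (-1.30 ± 0.04), LINC01224 (-1.03 ± 0.06) and OIP5-AS1 (-0.81 ± 0.04).

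Most of the response was found in both genotypes. In GLI2 KO cells 33% of genes rose and 32.2% fell, and 11726 genes were called in the same direction in both. Over the 13800 genes of 1 CPM or more the WT and GLI2 KO log2 fold changes had a Spearman correlation of 0.86, a description over genes, which share a fit and are not independent. The response differed by the interaction test for 2963 genes (13.5%), and 155 genes were called in opposite directions. ARRDC3 differed the most among genes of 100 CPM or more, with a response of 3.73 ± 0.13 in WT and 0.58 ± 0.12 in GLI2 KO cells (difference 3.15 ± 0.17, adjusted p = 1.57e-05). JUN rose by 0.85 ± 0.12 in WT and changed (-0.03 ± 0.12) in GLI2 KO cells (difference 0.88 ± 0.17). ODC1 rose by 0.90 ± 0.08 and 0.20 ± 0.08 (difference 0.70 ± 0.11). PER2 had 1.25 ± 0.08 and 2.20 ± 0.08 (difference -0.95 ± 0.11), and CCND2 2.12 ± 0.18 and 4.65 ± 0.27 (difference -2.53 ± 0.38). Of the lists, the integrated stress response had 22 of 38 genes that differed, one-carbon genes 14 of 22, aminoacyl-tRNA synthetases 14 of 23 and replication 23 of 42. EGR1, FASN, TXNIP, TNFAIP3 and HSPA5 did not pass as different (adjusted p = 0.136, 0.385, 0.194, 0.594 and 0.333).

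**Figure D5:**
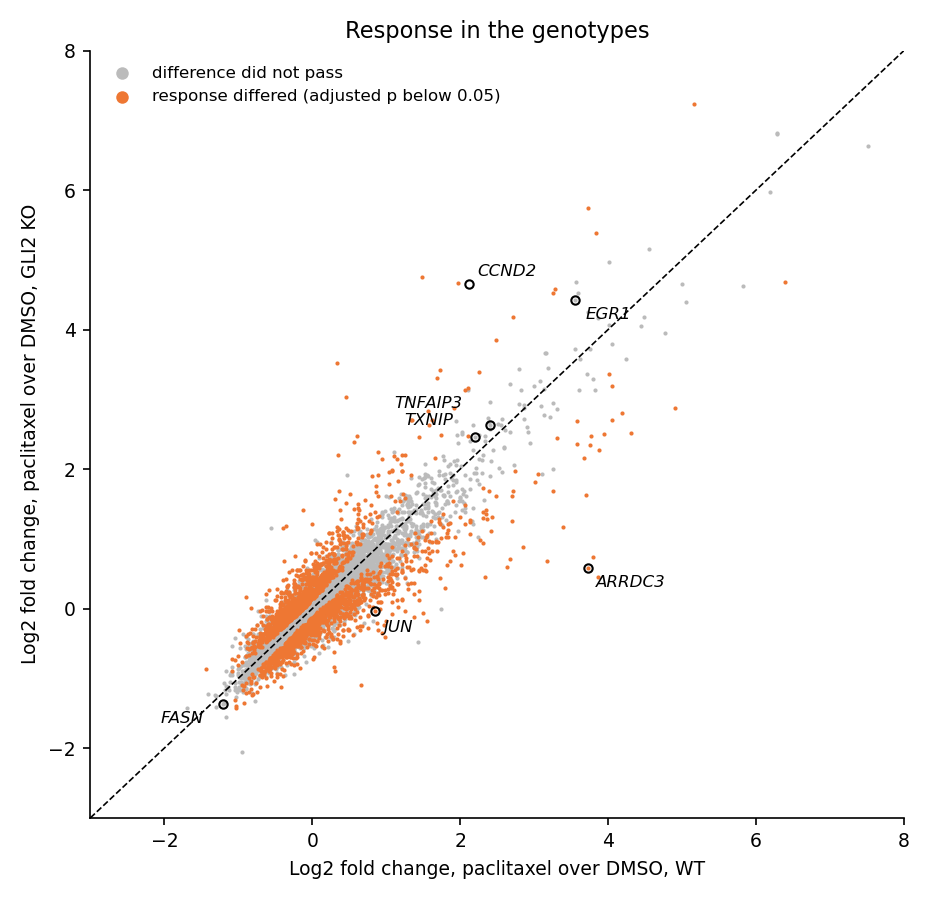
Log2 fold change of paclitaxel over DMSO in WT cells (x axis) against that in GLI2 KO cells (y axis) for the 13800 genes with a mean of 1 CPM or more, 1 point per gene, with named genes labelled and the line of equal response dashed. Points in orange passed the test of a difference, among them ARRDC3 and JUN below the line and CCND2 above it, and EGR1, TXNIP, TNFAIP3 and FASN did not pass.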

How the data were processed

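Polyadenylated RNA of 12 libraries was sequenced by the study, and the values used here are counts per gene deposited by the authors as whole numbers. Per the submitters' processing notes, reads were trimmed with Trim Galore 0.6.7, STAR and DESeq2 1.36.0 were used, and the build was hg38. The sources used here do not name the counting tool, its gene annotation or its strand setting. A deposited table of normalised values was not used.

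Groups were taken from the sample titles. Counts of all 12 libraries entered 1 fit with edgeR 4.0.16 in R 4.3.3 (quasi-likelihood test, TMM factors, 1 mean per group, 8 residual degrees of freedom), after a filter with a minimum count of 10, and p-values were adjusted by Benjamini and Hochberg over all 21974 genes. WT paclitaxel against DMSO was the main contrast, and the difference from the GLI2 KO response was tested in the same fit. An exact permutation test of 3 against 3 libraries cannot go below a two-sided p of 0.1, so none was used. CPM are scaled with the TMM factors. The standard error is the log2 fold change divided by the square root of the F statistic. For a gene with 1 to 3 counts in DMSO the ratio of summed counts scaled by library size is given with an exact binomial 95% interval, which like the floor of 3 counts covers counting error only. The fit was tested on simulated data.

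Symbols come from the counts, and 93.4% of the 25049 genes matched GENCODE 29 for type and position, while 5586 carry only an Ensembl identifier. Promoter sequences are from RefSeq. The 129 lists and families and the genes they hold were chosen with earlier results of these data known, so a count over a list is a description. Genes were named by 6 rules: the 10 largest gains and losses in CPM, the 10 largest fold changes each way among genes of 100 CPM or more and among long noncoding RNAs of 1 CPM or more, up to 3 rises and 3 falls per list, any member of 12 short lists, the 5 genes that moved most when single libraries were left out, and GLI2. Some genes that these rules give are not reported here. Alternatives were RLE, upper-quartile and no scaling factors, DESeq2 1.42.0, no low-count filter, a minimum count of 50, a fit on the 6 WT libraries alone, and leaving out each library in turn.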

Additional observations from a re-analysis of the deposited data

Results flagged for a closer look

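The difference between the WT and the GLI2 KO response to paclitaxel passed the interaction test (adjusted p below 0.05, edgeR) for 2963 of the genes tested, and that test is what put the genes named here forward. Values are the WT minus the GLI2 KO log2 fold change, so that a positive value stands for a larger rise or a smaller fall in WT cells. The genes are those named in the text that passed. Of genes of replication, repair and the cell cycle, the WT response was higher for CDKN2D (0.59), CCNE2 (0.50), SPC24 (0.36), RAD54L (0.31), CDKN1B (0.27), CLSPN (0.27), RRM2 (0.27), E2F1 (0.26), SFN (0.25), ASF1B (0.23), FBXW7 (0.23), CCND3 (0.22), XPO1 (0.22), TFDP1 (0.21), CENPH (0.19), NUP210 (0.18), BRIP1 (0.17), CDK2 (0.16), MCM5 (0.14) and LMNB1 (0.14). It was lower for CCND2 (-2.53). Of tubulin, cytoskeletal and matrix genes, the WT response was higher for NEB (1.38), AGBL3 (0.54), KIF17 (0.40), PLAU (0.36), RHOB (0.31), TUBB6 (0.26), FN1 (0.26), TUBA1A (0.22), VIM (0.18), ACTB (0.16), COL13A1 (0.16), KRT8 (0.16) and TBCD (0.13). It was lower for MAP1A (-0.41) and TUBGCP6 (-0.30). Of histone genes, the WT response was higher for H2BC4 (1.78) and H4C8 (0.86). Of early response, cytokine and death genes, the WT response was higher for ZC3H12A (1.32), CSF2 (1.09), GBP2 (1.03), JUN (0.88), GDF15 (0.87), IFI44L (0.79), IER3 (0.69), TNFSF15 (0.66), CITED2 (0.40), SMAD7 (0.34), EREG (0.29), PMAIP1 (0.28), TGFA (0.27), BCL2L11 (0.21), BCL2L2 (0.21) and TLR4 (0.21). It was lower for ERRFI1 (-0.59), BBC3 (-0.55), KLF2 (-0.48), ERBB2 (-0.18) and FGF5 (-0.18). Of metabolic and stress genes, the WT response was higher for ARRDC3 (3.15), PDK4 (1.37), HMOX1 (1.03), CYP1A1 (0.77), ODC1 (0.70), HSPB8 (0.69), DGAT2 (0.65), MYLIP (0.52), FOXO1 (0.48), SAT1 (0.30), SHMT1 (0.24) and GAPDH (0.17). It was lower for SLC6A9 (-1.07), STC2 (-1.06), PER2 (-0.95), PER1 (-0.76), VLDLR (-0.50), PSAT1 (-0.33), MARS1 (-0.30), SMOX (-0.30) and MTR (-0.26). Of noncoding RNAs, the WT response was higher for LINC02474 (3.33), LINC00654 (1.71), XPC-AS1 (1.51), ENSG00000275216 (0.52), SNHG4 (0.40), LINC01224 (0.39) and NEAT1 (0.37). It was lower for SNHG17 (-0.42) and OIP5-AS1 (-0.17). Of other genes, the WT response was higher for GCNA (0.62), EFNB2 (0.31) and SPINT2 (0.27). It was lower for ZNF85 (-0.48), CIRBP (-0.22), USP13 (-0.20) and RBFOX2 (-0.14). The DMSO levels of LINC02474 and LINC00654 lay at or below the floor of 3 counts, so the size of their difference depends on the fit.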

How the results depend on the processing

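The number of genes called kept within 1.5 times of 14660 under every alternative run, at 11612 to 15523, and at 13895 to 14183 when single WT libraries were left out (7170 to 7389 higher and 6704 to 6921 lower). Genes called at least 2-fold numbered 4051 to 4270 without single libraries (3919 to 4141 higher and 129 to 165 lower), and genes whose response differed from GLI2 KO 2128 to 3443. Library totals left 4295 genes lower. Genes at least 2-fold lower numbered 65 with upper-quartile factors and 63 with library totals. A minimum count of 50, which tests fewer genes, left 1716 at least 2-fold changed, 1673 higher and 43 lower. Of 128 list medians 27 changed sign with library totals, 22 with upper-quartile factors, 9 with a minimum count of 50, 10 without a single library, 3 in the fit on WT libraries alone, and none with RLE factors, DESeq2 or no filter. For single genes, the log2 fold change took the other sign with library totals for CCND3 (0.15), CDKN1B (0.00), MDM2 (0.00), MT-CO3 (0.02), TUBA1C (0.08) and TUBB4B (0.11), with upper-quartile factors for CCND3 (0.13) and TUBB4B (0.09) and with a minimum count of 50 for CCND3 (0.06). ERBB4 passed in the fit on WT libraries alone (0.74, adjusted p = 0.0482). DESeq2 and the unfiltered fit each lost 1 named call, that of TUBG2. The fit on WT libraries alone lost the calls of MT-CYB, MT-CO3 and BEST1 (adjusted p = 0.0722, 0.0911 and 0.108). Depth limits genes at or below the floor of 3 counts in DMSO, whose size of change is not given as a fitted fold. No paired analysis was made, because the labels give library numbers but no replicate number that groups share.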

Other observations

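Epithelial junction genes rose more often than they fell, 22 against 5 of 37, with a median of 0.47, and mostly from low levels. MARVELD2, a protein of tricellular tight junctions, rose from 0.256 ± 0.0756 to 2.4 ± 0.209 CPM (3.21 ± 0.20) and CLDN6, a claudin of embryonic epithelium, from 0.27 ± 0.098 to 1.11 ± 0.0875 CPM (2.01 ± 0.21). SPINT2, an inhibitor of membrane serine proteases, fell from 85.4 ± 0.807 to 66.7 ± 3.47 CPM (-0.35 ± 0.05). Mesenchymal genes went both ways, 9 higher and 4 lower of 16. FN1, fibronectin, fell from 368 ± 16.4 to 292 ± 8.53 CPM (-0.33 ± 0.04), and CDH2, N-cadherin, rose from 0.635 ± 0.0747 to 1.59 ± 0.3 CPM (1.31 ± 0.17). Of keratins 5 of 11 rose and 1 fell, with KRT7 up from 3.12 ± 0.181 to 5.66 ± 0.168 CPM (0.86 ± 0.09). Of luminal and hormone receptor genes 8 of 20 rose and 7 fell. AGR2, a disulfide isomerase of secretory cells, fell from 12.4 ± 0.26 to 6.15 ± 0.483 CPM (-1.01 ± 0.14) and SPDEF, a luminal factor, from 7.17 ± 0.0844 to 3.49 ± 0.305 CPM (-1.04 ± 0.23), while GATA3 rose from 3.43 ± 0.145 to 5.12 ± 0.308 CPM (0.58 ± 0.08). The shares are to be read against the 34.6% of all genes that rose and the 32.1% that fell, and, for genes of low level, the 43.9% to 49% that rose between 0.1 and 10 CPM.

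Regulators of RNA and vesicle traffic moved by small amounts, with shares of falls near the 57.8% to 67.4% over all genes of 10 CPM or more. Of splicing regulators 31 of 43 fell and 3 rose (median -0.16, and -0.01 with library totals). CIRBP, a cold-inducible RNA-binding protein, fell from 127 ± 1.87 to 78.7 ± 0.883 CPM (-0.69 ± 0.03) and RBFOX2 from 198 ± 3.07 to 130 ± 4.82 CPM (-0.61 ± 0.03), while PTBP2, the neuronal form of the polypyrimidine tract protein, rose from 27.8 ± 0.644 to 39.3 ± 0.424 CPM (0.50 ± 0.04). Of Rab GTPases 32 of 54 fell and 8 rose (median -0.17 and -0.01), with RAB27A, of secretory vesicles, down from 30.6 ± 0.502 to 18 ± 0.575 CPM (-0.77 ± 0.04). Of aldehyde dehydrogenases 12 of 17 fell (median -0.33 and -0.18), among them ALDH3A2, which oxidises fatty aldehydes, from 177 ± 10.8 to 116 ± 6.05 CPM (-0.62 ± 0.06). Mitochondrial genes for biogenesis and dynamics had 17 of 30 lower and 5 higher (median -0.11, and 0.04 with library totals). PPARGC1A, the co-activator PGC-1alpha, rose from 0.872 ± 0.0982 to 3.47 ± 0.0419 CPM (1.99 ± 0.12) and TWNK, the mitochondrial helicase, from 66.9 ± 2.41 to 107 ± 5.59 CPM (0.67 ± 0.04), and the protease LONP1 fell from 151 ± 3.61 to 103 ± 2.5 CPM (-0.55 ± 0.05). Zinc-finger genes of the ZNF series had 186 of 458 higher and 128 lower (median 0.06 and 0.22), and 119 of them differed in response from GLI2 KO cells. ZNF596 rose from 1.95 ± 0.141 to 5.22 ± 0.331 CPM (1.41 ± 0.09) and ZNF85 fell from 11.8 ± 0.0765 to 6.63 ± 0.895 CPM (-0.84 ± 0.08). Solute carriers had 79 of 263 higher and 126 lower (median -0.10, and 0.06 with library totals), with the choline carrier SLC44A2 down from 39 ± 0.911 to 21.6 ± 0.419 CPM (-0.85 ± 0.04). Ephrins and their receptors had 10 of 21 higher and 4 lower, with the ligand EFNB2 up from 16.8 ± 0.582 to 34.4 ± 0.637 CPM (1.04 ± 0.04). USP13, a deubiquitinase, fell from 32.4 ± 0.511 to 16.1 ± 1.31 CPM (-1.01 ± 0.05), and TRIM28, the co-repressor that zinc-finger proteins recruit, from 673 ± 9.44 to 467 ± 10.4 CPM (-0.53 ± 0.03).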
